A study of Bos indicus with 5 samples.

Results

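The ephrins with the Eph receptors, the semaphorins with the plexins and neuropilins, the netrins with the UNC5 receptors, and the slits with the Robo receptors are the main families of guidance cues and their receptors. In the ampulla expression table, every gene whose symbol placed it in one of these families was taken, which gave 66 of 24616 genes. The 66 genes were 5 ephrin-A ligands, 3 ephrin-B ligands, 9 EPHA receptors, 4 EPHB receptors, 6 class 3 semaphorins, 6 class 4 semaphorins, 2 class 5 semaphorins, 4 class 6 semaphorins, the class 7 semaphorin SEMA7A, 8 plexins, 2 neuropilins, 4 secreted netrins, the membrane-anchored netrin NTNG2, 4 UNC5 receptors, 3 slits and 4 Robo receptors. DCC, EPHB6, NTNG1, PLXNA4 and SEMA3B were not analysed here.

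RNA was sequenced from the ampulla, the wide oviduct segment near the ovary, of healthy multiparous Nelore (Bos indicus) cows on day 4 after ovulation was induced. Every cow carried an intravaginal progesterone (P4) device of 1 g, received 2 mg of estradiol benzoate at its insertion and prostaglandin F2α (PGF) at and after its removal, and then a GnRH agonist. Cows of the large follicle, large corpus luteum group (LF/LCL) had the device out 42 h before GnRH and had received PGF also at insertion, whereas in the small follicle, small corpus luteum group (SF/SCL) the device came out 30 h before GnRH without that PGF. There were 2 LF/LCL and 3 SF/SCL libraries, each from a different cow, and the comparison asked which transcripts differ between the oviducts of the groups. The cows were drawn from the extremes of each group's ranking, and a further LF/LCL library had been discarded by the study for quality. Follicle size, corpus luteum size and hormone schedule changed together, so their effects cannot be told apart. The tissue spanned the whole wall, and therefore fewer cells of a type and less RNA per cell cannot be told apart in any value below.

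Guidance molecules were named for steering axons, but most are also used in vessels, epithelia and smooth muscle. Ephrins and Eph receptors sit on opposing cells and signal in both directions on contact, sorting cells and setting tissue borders. Semaphorins act through plexins, and most class 3 semaphorins, which are secreted, also need a neuropilin. Netrins are laminin-related proteins that act through DCC and UNC5 receptors, and slits are secreted ligands of the Robo receptors that usually repel cells.

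Libraries held 13418278 to 19592174 reads assigned to genes, and 33006 to 44786 of these, or 0.214% to 0.282%, fell on the guidance genes. Values are given as normalized reads, the read count divided by the size factor of the library, always in the order LF/LCL replicates 1 and 2, then SF/SCL replicates 1, 2 and 3. Levels of different genes are not compared as amounts of transcript, because they also depend on transcript length. Shares of reads and ratios between genes are given only to compare libraries. PLXNB2 alone took 41.4% to 47.3% of the guidance reads. All 66 genes had at least 1 read. By mean normalized reads, 12 of them were under 15, 48 were from 15 to 1000 and 6 were higher, and 63 passed the filter on low values (a mean above 5). EPHA8, NTN5 and UNC5D did not pass it. EPHA8, for example, had a single read, in SF/SCL replicate 1, under a floor of 3 reads. Floors cover counting error only.

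The tissue carried its defining epithelial markers, since the oviductal glycoprotein OVGP1 had 117179 to 147247 and the ciliogenesis factor FOXJ1 8481 to 12698 normalized reads. The libraries differed in other cell markers. Summed smooth muscle markers were 108570 and 54663 in LF/LCL against 33111, 36702 and 13516 in SF/SCL, with 6 of 7 genes at an unadjusted limma p under 0.05, all higher in LF/LCL. Summed ciliated cell markers were 55578 and 71670 against 85337, 84593 and 78674, with 7 of 10 genes at that level, all higher in SF/SCL. Summed stromal fibroblast markers were 61162 and 25953 against 30035, 16414 and 36776, and 0 of 7 reached it. Summed endothelial markers were 7638 and 4819 against 6359.8, 5847 and 8363, and of 7 genes 1, KDR, reached it, higher in SF/SCL. The smooth muscle and ciliated sums did not overlap between groups, whereas the fibroblast and endothelial sums did. Of the other marker lists, 5 of 10 immune, 3 of 7 secretory, 4 of 8 proliferation and 1 of 6 neuron and glia genes reached that level, all higher in LF/LCL, and 1 of 3 lymphatic genes, PROX1, was higher in SF/SCL. None of 2 blood and 3 mesothelial genes did. Over all genes tested, the share at that level was 11.5%, with 5.64% favouring LF/LCL and 5.86% favouring SF/SCL. No marker gene had a limma adjusted p under 0.05, and the lowest value was 0.222, for a ciliated cell marker.

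Between the groups, no guidance gene reached an adjusted p under 0.05 in limma, where the lowest value was 0.281, for NTN4. The same test called 0 of 15815 genes in the whole table (0%), and edgeR's quasi-likelihood test also called 0%. At an unadjusted limma p under 0.05 there were 10 guidance genes of 63, against 11.5% of all genes tested. Of the 10, 4 were higher in LF/LCL (5.64% of all genes) and 6 were higher in SF/SCL (5.86% of all genes). edgeR also gave 10, against 11.7% of all genes. The guidance count with every library was thus near the background. Without SF/SCL replicates 1, 2 and 3 in turn, it was 9, 13 and 9 of 62 guidance genes. The shares of all genes in those fits were 10.1%, 10.5% and 9.45%.

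DESeq2 on the recovered reads, the alternative closest to the study's own tool, called 3 guidance genes at an adjusted p under 0.05, against 2.89% of all genes. NRP2 was higher in LF/LCL (1.38% of all genes), and NTN4 and EFNB1 were higher in SF/SCL (1.5% of all genes). Of these 3 calls, 1 was left without SF/SCL replicate 3 (NTN4), without LF/LCL replicate 1 (NTN4) and without LF/LCL replicate 2 (NRP2). Calls over all genes numbered 457 with every library and 294, 269 and 350 in those fits. The study's own enriched terms for differential ampulla genes listed EFNB1 and EFNA5 under SF/SCL and NTNG2 under LF/LCL. For SF/SCL they included axon guidance, with EFNB1 and EFNA5, and ephrin receptor binding, with EFNB1 and the effector TIAM1. The effector PAK1 was listed under LF/LCL. Those terms cover only part of its calls. In 19 guidance genes the values of the groups did not overlap, LF/LCL being higher in 8 and SF/SCL in 11. That compares with 30.1% of all genes, 15% and 15.1% in the respective directions. With 2 libraries against 3, a two-sided exact permutation test of one gene cannot go below p = 0.2.

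The log2 fold changes of the 63 genes, LF/LCL over SF/SCL on the log2(normalized reads + 1) scale, ran from -2.34 to 1.61. Of these, 26 were above 0 and 37 below. Their median was -0.09, beside 0.01 for all genes. The sign of that median rested on single libraries, being -0.32 without LF/LCL replicate 1 and 0.16 without LF/LCL replicate 2.

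**Figure D1:**
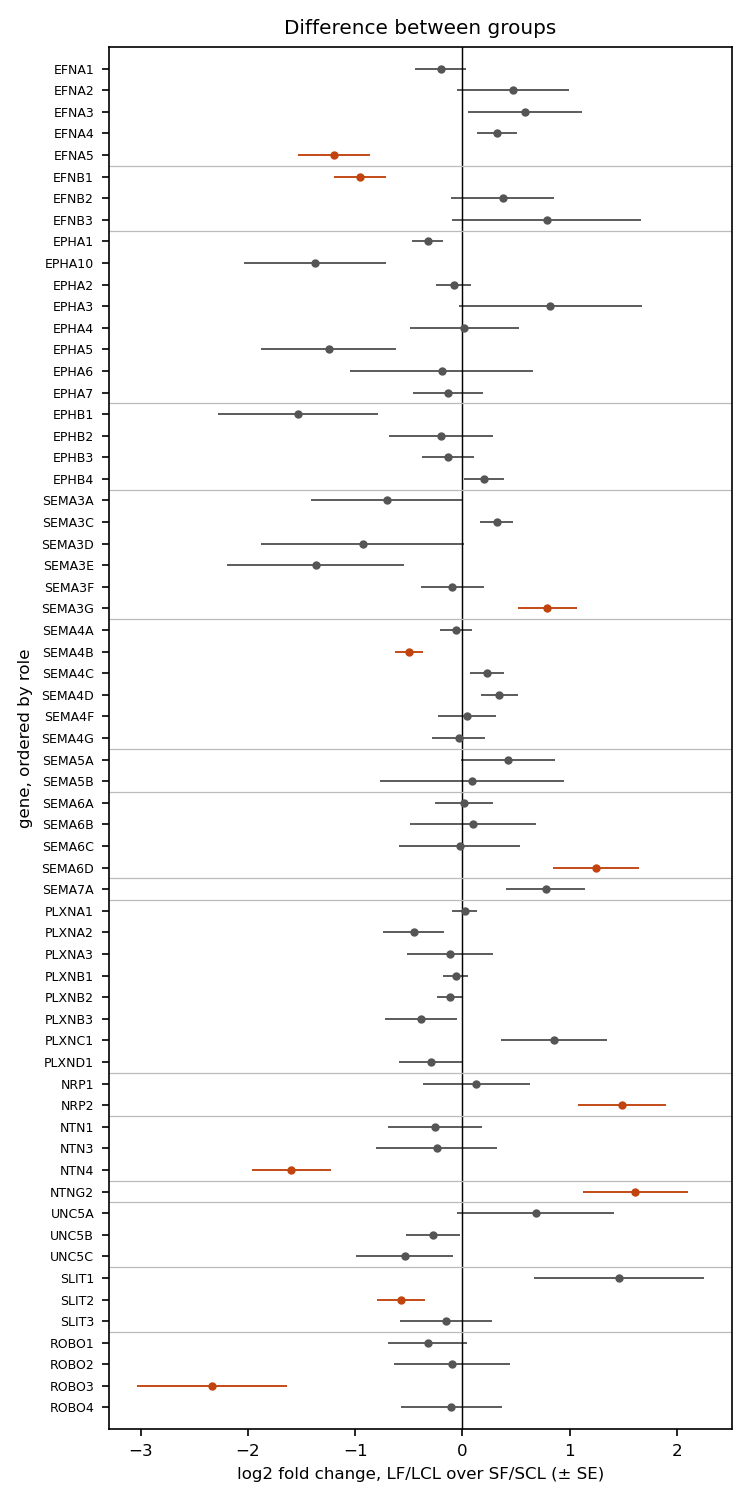
Log2 fold change of LF/LCL over SF/SCL for the 63 guidance genes tested, with the gene on the vertical axis in the order of their roles and bars of 1 standard error from limma. The 10 genes with an unadjusted p under 0.05 are orange, from ROBO3 at -2.34 to NTNG2 at 1.61, and none had an adjusted p under 0.05.

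Among the ephrin ligands, EFNB1 and EFNA5 were higher in SF/SCL. EFNB1, a transmembrane ligand of EPHB receptors, had 542 and 548 normalized reads in LF/LCL against 1344, 761 and 1152 in SF/SCL. Every SF/SCL library lay above both LF/LCL libraries, which were nearly level with each other. The log2 fold change was -0.95 ± 0.24 (SE) (limma adjusted p = 0.302), and DESeq2 gave -0.99 with an adjusted p of 0.0197. Its direction held in all 5 fits that left out a library, each with an unadjusted limma p under 0.05, while the DESeq2 adjusted p was above 0.05 in 4 of them (0.110 to 0.230).

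EFNA5, a ligand of EPHA receptors held in the membrane by a lipid anchor, had 41.0 and 71.6 normalized reads in LF/LCL compared with 112, 118 and 150.2 in SF/SCL. No overlap was seen between groups, and LF/LCL replicate 1 was the lowest library. Its log2 fold change was -1.20 ± 0.34 (SE) (limma adjusted p = 0.313), with an unadjusted limma p of 0.0637 once LF/LCL replicate 1 was left out.

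The other ephrin ligands showed overlapping groups. EFNA1, a ligand known from endothelium, had 1369 and 768 normalized reads in LF/LCL against 1119, 1212 and 1213 in SF/SCL. EFNA4 had 359 and 324 normalized reads in LF/LCL compared with 328, 259 and 238 in SF/SCL. EFNB2, which marks arterial endothelium, had 145 and 52.3 normalized reads in LF/LCL against 63.4, 57.5 and 82.6 in SF/SCL. In EFNA1 and EFNB2 the 2 LF/LCL libraries were the highest and the lowest of all 5. EFNB3 was close to the floor in several libraries, with 17.6 and 4.84 normalized reads in LF/LCL compared with 3.12, 11.7 and 3.22 in SF/SCL. The ratio of EFNB1 to EFNB2 was 3.73 and 10.5 in LF/LCL against 21.2, 13.2 and 13.9 in SF/SCL, with no overlap between groups.

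No Eph receptor reached an unadjusted p under 0.05 in limma or edgeR, and 1, EPHB1, did in DESeq2. Of the EPHA receptors, EPHA1, an epithelial receptor, had 491 and 498 normalized reads in LF/LCL against 656, 540.1 and 671 in SF/SCL, which separated the groups by a small step (log2 fold change -0.32 ± 0.14 (SE), limma adjusted p = 0.460). EPHA2, another epithelial receptor, had 342 and 332 normalized reads in LF/LCL compared with 395, 309 and 371 in SF/SCL, and the groups overlapped. EPHA4, which binds ephrins of both types, had 162 and 50.3 normalized reads in LF/LCL against 82.1, 107 and 80.5 in SF/SCL, with the LF/LCL libraries again at the 2 extremes and a log2 fold change of 0.02 that was below 0 under voom and under scaling to library size. EPHA5 and EPHA10, named after their values were seen, did not overlap between groups either but rested on few reads, from 3 to 17 and from 2 to 10 in a library.

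Of the EPHB receptors, EPHB1 had 17.6 and 13.6 normalized reads in LF/LCL compared with 23.9, 33.4 and 126 in SF/SCL. SF/SCL lay above LF/LCL throughout, and SF/SCL replicate 3 stood far above the other 4 libraries (log2 fold change -1.54 ± 0.75 (SE), limma adjusted p = 0.494, and -0.83 without that library). DESeq2 gave a log2 fold change of -1.97 with an unadjusted p of 0.0220 and an adjusted p of 0.255. EPHB2 had 42.2 and 30.0 normalized reads in LF/LCL against 32.2, 31.1 and 68.7 in SF/SCL. EPHB3 had 891 and 553 normalized reads in LF/LCL compared with 839, 636 and 859.6 in SF/SCL. EPHB4, the venous partner of EFNB2, had 713 and 506 normalized reads in LF/LCL against 481, 497 and 595 in SF/SCL. These 3 overlapped between groups, and their log2 fold changes were -0.20, -0.14 and 0.20.

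In class 3, SEMA3G, a semaphorin of endothelial cells, had 181 and 135 normalized reads in LF/LCL compared with 75.9, 88.6 and 107 in SF/SCL. Both LF/LCL libraries were above all SF/SCL libraries, with a log2 fold change of 0.79 ± 0.28 (SE) (limma adjusted p = 0.376). Without LF/LCL replicate 1 the unadjusted limma p was 0.168. SEMA3C had 1366 and 1244 normalized reads in LF/LCL against 916, 1239.6 and 1003 in SF/SCL. Its groups were separated by a few reads only, with LF/LCL replicate 2 and SF/SCL replicate 2 almost level. SEMA3F, a ligand that acts through NRP2, had 1113 and 668 normalized reads in LF/LCL compared with 790.2, 794 and 1241 in SF/SCL. SEMA3A, which acts through NRP1, had 70.4 and 20.3 normalized reads in LF/LCL against 33.3, 65.3 and 113 in SF/SCL. Neither separated the groups, and in SEMA3A SF/SCL replicate 3 was the highest and LF/LCL replicate 2 the lowest.

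The class 4 semaphorins are membrane proteins. SEMA4B had 1041 and 1251 normalized reads in LF/LCL compared with 1657, 1448 and 1745 in SF/SCL. All SF/SCL libraries were above both LF/LCL libraries, and both the step and its standard error were the smallest of the 10 genes (log2 fold change -0.50 ± 0.13 (SE), limma adjusted p = 0.306). The unadjusted limma p was 0.0708 without LF/LCL replicate 1. SEMA4C, a ligand of PLXNB2, had 2066 and 1702 normalized reads in LF/LCL against 1651, 1358 and 1814 in SF/SCL. SEMA4A had 651 and 778 normalized reads in LF/LCL compared with 654, 826 and 757 in SF/SCL. Both overlapped between groups.

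In class 6, whose members act through A-type plexins, SEMA6D had 206 and 132 normalized reads in LF/LCL against 102, 48.2 and 66.5 in SF/SCL. LF/LCL was higher without overlap, although LF/LCL replicate 2 and SF/SCL replicate 1 lay close (log2 fold change 1.25 ± 0.40 (SE), limma adjusted p = 0.353). Its unadjusted limma p was 0.130 without LF/LCL replicate 1. SEMA6A had 137 and 114 normalized reads in LF/LCL compared with 111, 107 and 159 in SF/SCL. SEMA6B had 34.0 and 31.0 normalized reads in LF/LCL against 14.6, 38.9 and 48.3 in SF/SCL, and SEMA6C had 76.2 and 27.1 normalized reads in LF/LCL compared with 71.7, 38.1 and 36.5 in SF/SCL. These overlapped, with log2 fold changes of 0.02, 0.10 and -0.03, and each of the 3 changed sign under at least 1 other scaling or count model.

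SEMA7A, a lipid-anchored semaphorin that binds PLXNC1, had 73.9 and 71.6 normalized reads in LF/LCL against 43.7, 31.1 and 54.7 in SF/SCL. LF/LCL was higher without overlap (log2 fold change 0.78 ± 0.36 (SE), limma adjusted p = 0.481). The class 5 gene SEMA5A had 1012 and 365 normalized reads in LF/LCL compared with 547, 458 and 369 in SF/SCL, a high value in LF/LCL replicate 1 and the lowest in replicate 2 of the same group. SEMA5B had 16.4 and 5.81 normalized reads in LF/LCL against 4.16, 7.77 and 22.5 in SF/SCL, and overlapped as well, with a log2 fold change of 0.09 that was below 0 in DESeq2 and edgeR.

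**Figure D2:**
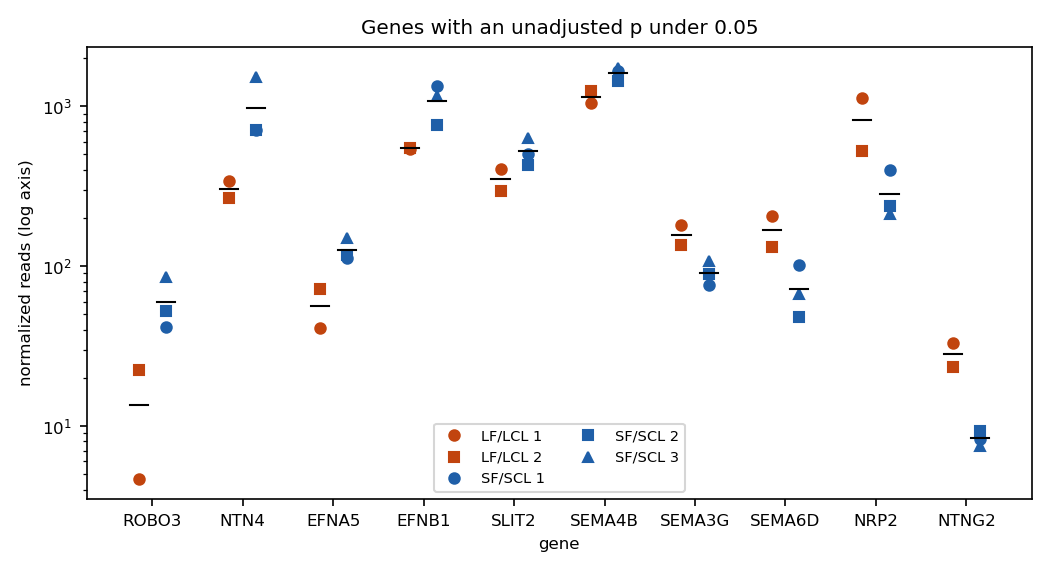
Normalized reads (log axis) of the 10 guidance genes with an unadjusted limma p under 0.05, by library. Orange points are LF/LCL and blue points SF/SCL, the shape gives the replicate and the short line the group mean. The groups do not overlap in any of the 10, and in ROBO3 the LF/LCL libraries differ from each other more than the SF/SCL libraries do.

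Of the semaphorin receptors, NRP2, a co-receptor for class 3 semaphorins that also binds lymphatic growth factors, had 1120.0 and 526 normalized reads in LF/LCL compared with 400.3, 238 and 212 in SF/SCL. Both LF/LCL libraries were above the SF/SCL libraries, and LF/LCL replicate 1 was the highest by far. The log2 fold change was 1.49 ± 0.41 (SE) (limma adjusted p = 0.313), and DESeq2 gave 1.54 with an adjusted p of 0.0156. Without LF/LCL replicate 1 the limma log2 fold change was 0.95, with an unadjusted p of 0.0616, and the DESeq2 adjusted p 0.608. The DESeq2 adjusted p was 0.0749 and 0.0760 without SF/SCL replicates 2 and 3. Smooth muscle markers, given above, were also higher in both LF/LCL libraries and highest in LF/LCL replicate 1, and their part in the NRP2 values was not tested.

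NRP1, the paralog that carries SEMA3A signals, had 742 and 279.7 normalized reads in LF/LCL against 462, 270.5 and 578 in SF/SCL. It overlapped between groups, with LF/LCL replicate 1 the highest and SF/SCL replicate 2 the lowest. The ratio of NRP2 to NRP1 within each library was 1.51 and 1.88 in LF/LCL against 0.867, 0.879 and 0.367 in SF/SCL. Both LF/LCL ratios lay above all SF/SCL ratios. This ratio, like those for EFNB1 and NTN4, was chosen after the values were seen and got no test.

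None of the 8 plexins separated the groups. PLXNB2, an epithelial plexin, had 16035 and 15447 normalized reads in LF/LCL compared with 15880.3, 16469.6 and 18932 in SF/SCL. PLXNB1, a receptor of SEMA4D, had 1069.6 and 1041 normalized reads in LF/LCL against 1195, 996 and 1121 in SF/SCL. PLXND1, the endothelial plexin that SEMA3E binds, had 731 and 647 normalized reads in LF/LCL compared with 828, 595 and 1220.2 in SF/SCL. PLXNB2 and PLXNB1 were among the steadiest of the guidance genes, with log2 fold changes of -0.11 ± 0.12 (SE) and -0.06 ± 0.12 (SE), while PLXND1 was high in SF/SCL replicate 3. PLXNA3, named for its spread within SF/SCL, had 202 and 153 normalized reads in LF/LCL against 172, 127 and 317 in SF/SCL, with the same library on top. PLXNC1, named after its values were seen, had 218 and 732 normalized reads in LF/LCL compared with 255, 197 and 212 in SF/SCL. LF/LCL replicate 2 stood alone there, and the remaining 4 libraries were close together.

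Of the netrins, NTN4, a laminin-like component of basement membranes, had 341 and 266 normalized reads in LF/LCL against 709, 709 and 1524 in SF/SCL. Every SF/SCL library was above both LF/LCL libraries, SF/SCL replicates 1 and 2 were level, and SF/SCL replicate 3 was far above them. The log2 fold change was -1.60 ± 0.37 (SE) (limma adjusted p = 0.281), and DESeq2 gave -1.69 with an adjusted p of 0.00227. All 5 fits without a library kept an unadjusted limma p under 0.05, and the DESeq2 adjusted p was above 0.05 once, at 0.0741 without LF/LCL replicate 2. Without SF/SCL replicate 3, the DESeq2 log2 fold change was -1.23. Ciliated cell markers were also higher in all SF/SCL libraries and smooth muscle markers lower, and their part in the NTN4 values was not tested.

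NTN1, the founding netrin of axon guidance, had 257 and 93.9 normalized reads in LF/LCL compared with 178, 161 and 225 in SF/SCL. Its groups overlapped, and the LF/LCL libraries were the highest and lowest. The ratio of NTN4 to NTN1 was 1.33 and 2.84 in LF/LCL against 3.99, 4.41 and 6.76 in SF/SCL. NTN3 had 17.6 and 9.68 normalized reads in LF/LCL against 10.4, 17.9 and 20.4 in SF/SCL. NTN5 had 1.17 and 0 normalized reads in LF/LCL compared with 2.08, 3.11 and 0 in SF/SCL, at or under the floor of 3 reads in 4 of 5 libraries.

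NTNG2, a lipid-anchored netrin that does not bind DCC, had 32.8 and 23.2 normalized reads in LF/LCL against 8.32, 9.33 and 7.51 in SF/SCL. LF/LCL was well above SF/SCL, whose 3 libraries were level (log2 fold change 1.61 ± 0.49 (SE), limma adjusted p = 0.336). It rested on 7 to 28 reads in a library, and the unadjusted limma p was 0.111 without LF/LCL replicate 1.

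The netrin receptor UNC5B, known from vessels, had 523 and 778 normalized reads in LF/LCL compared with 909, 592 and 849 in SF/SCL. UNC5C had 38.7 and 42.6 normalized reads in LF/LCL against 48.9, 99.5 and 42.9 in SF/SCL, where the groups only just did not overlap, SF/SCL replicate 2 stood apart and the other 4 libraries were close. UNC5A had 23.5 and 9.68 normalized reads in LF/LCL compared with 4.16, 13.2 and 12.9 in SF/SCL. UNC5B and UNC5A overlapped between groups, and UNC5D was at or under 3 reads in each library, with 3.52 and 0.968 normalized reads in LF/LCL against 3.12, 2.33 and 0 in SF/SCL.

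SLIT2, a secreted Robo ligand, had 403 and 294 normalized reads in LF/LCL compared with 505, 427 and 631 in SF/SCL. SF/SCL was higher without overlap, by a small margin between LF/LCL replicate 1 and SF/SCL replicate 2 (log2 fold change -0.58 ± 0.22 (SE), limma adjusted p = 0.417). Only 2 of the 5 fits without a library kept an unadjusted limma p under 0.05, and without LF/LCL replicate 2 it was 0.234 at a log2 fold change of -0.35. SLIT3 had 501 and 385 normalized reads in LF/LCL against 512, 285 and 805 in SF/SCL, with the 3 SF/SCL libraries spread on both sides of LF/LCL. SLIT1 had 12.9 and 21.3 normalized reads in LF/LCL compared with 5.20, 12.4 and 2.15 in SF/SCL, LF/LCL being higher without overlap by a narrow margin. It rested on 2 to 22 reads in a library, and SF/SCL replicate 3 was under the floor of 3 reads.

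ROBO3, a divergent Robo receptor known from axons that cross the midline, had 4.69 and 22.3 normalized reads in LF/LCL against 41.6, 52.1 and 85.9 in SF/SCL. All SF/SCL libraries were above LF/LCL, and LF/LCL replicate 1 was far below replicate 2. The log2 fold change was -2.34 ± 0.70 (SE) (limma adjusted p = 0.330). LF/LCL replicate 1 had only 4 reads, and without it the log2 fold change was -1.32 and the unadjusted limma p 0.0671. ROBO4, the endothelial Robo, had 534 and 229 normalized reads in LF/LCL compared with 356, 256 and 582 in SF/SCL. ROBO1 had 108 and 64.9 normalized reads in LF/LCL against 108, 77.7 and 137 in SF/SCL, and ROBO2 had 249 and 90.0 normalized reads in LF/LCL compared with 104, 159 and 248 in SF/SCL. In these 3 the groups overlapped and LF/LCL replicate 2 was below LF/LCL replicate 1.

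Differences between cows of one group were frequent among the guidance genes. In LF/LCL, 25 of 63 (39.7%) were over 1.5-fold higher in replicate 1 than in replicate 2, against 11.4% of all genes tested, and 6 (9.52%) were over 1.5-fold lower, against 11.5%. The 25 included EFNB2, EPHA4, NRP1, NRP2, NTN1, ROBO2, ROBO4 and SEMA5A. In SF/SCL, 22 (34.9%) were over 1.5-fold higher in replicate 3 than in replicate 2, against 13.6% of all genes, and 3 (4.76%) were lower, against 10.9%. Those 22 included EPHB1, NRP1, NTN4, PLXND1, ROBO2, ROBO4, SEMA3A and SLIT3. SF/SCL replicate 3 was also over 1.5-fold higher than replicate 1 in 17 genes (27%), against 11.2% of all, and lower in 5 (7.94%), against 10.5%. Replicates 1 and 2 differed by that much in 11 genes each way (17.5%), against 10.8% and 9.71%.

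Low values scatter more by counting alone, so the same was counted among genes with a mean of at least 50, where 45 guidance genes remained. There, 15 were over 1.5-fold higher in LF/LCL replicate 1 than in replicate 2, against 8.63% of all such genes, and 3 were lower, against 6.77%. Likewise 15 were over 1.5-fold higher in SF/SCL replicate 3 than in replicate 2, against 10.5%, and 1 was lower, against 6.78%. In the other pairs, 7 were higher and 2 lower in SF/SCL replicate 3 than in replicate 1, against 6.91% and 7.15%, and 7 were higher and 4 lower in SF/SCL replicate 1 than in replicate 2, against 7.55% and 5%. These counts carry no test, since they compare single libraries.

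Seen over all 5 libraries, LF/LCL replicate 1 had the highest value in 25 guidance genes (39.7%, against 21.9% of all genes) and SF/SCL replicate 3 in 24 (38.1%, against 23.7%). The lowest value fell on LF/LCL replicate 2 in 24 (38.1%, against 19.7%) and on SF/SCL replicate 2 in 16 (25.4%, against 18.7%). High and low libraries thus occurred in both groups.

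**Figure D3:**
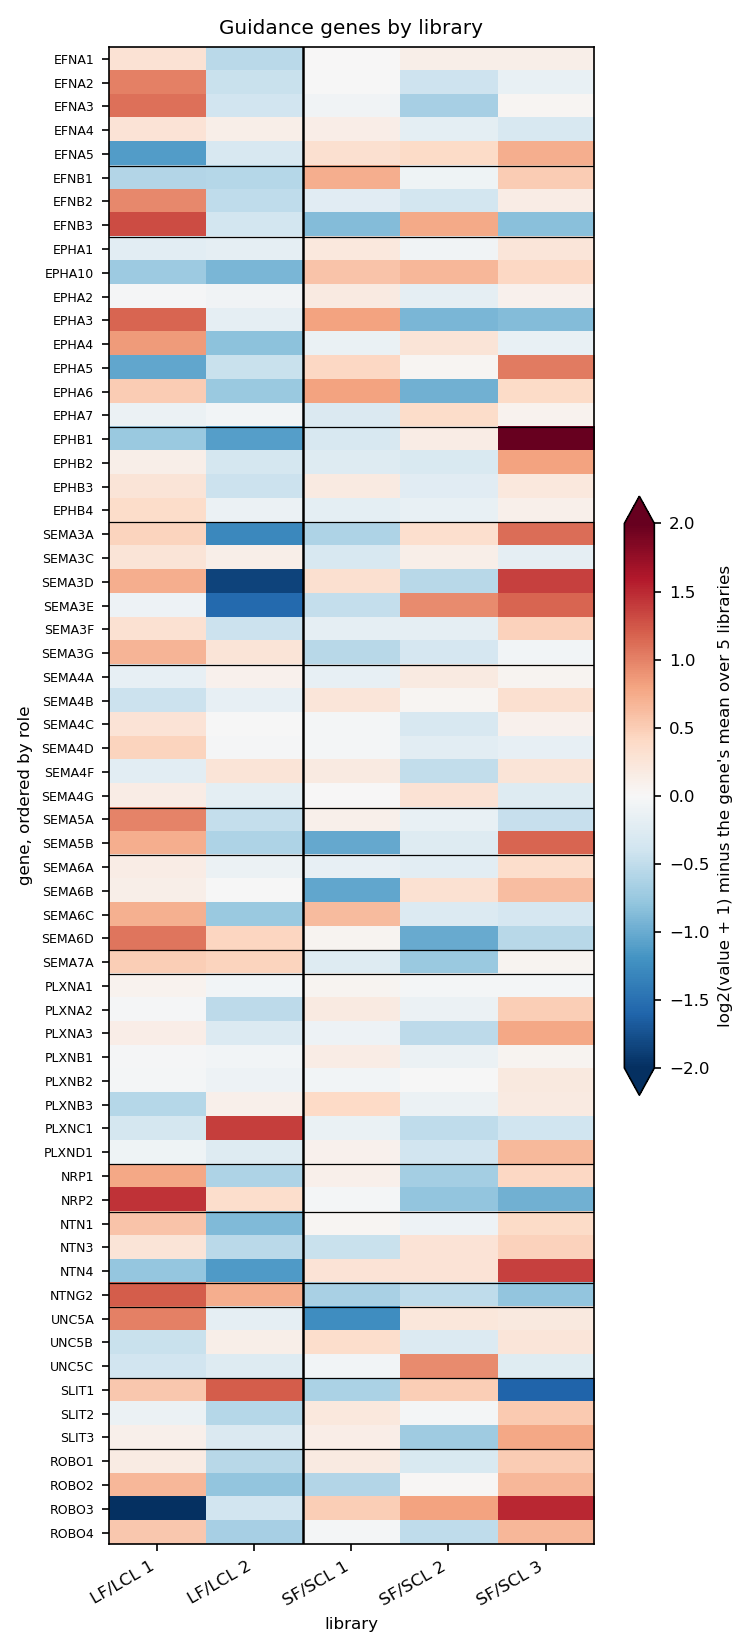
Value of the 63 guidance genes tested in each of the 5 libraries, as log2(normalized reads + 1) minus the gene's mean over the libraries; red is higher and blue lower, thin lines separate roles, and the thick line separates LF/LCL from SF/SCL. LF/LCL replicate 1 and SF/SCL replicate 3 are the reddest columns and hold the highest value in 25 and 24 genes.

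**Figure D4:**
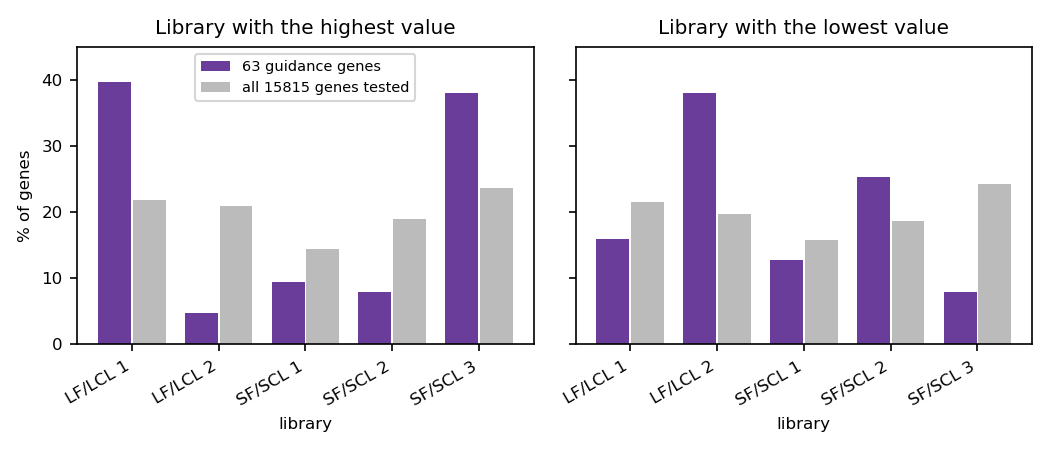
Share of genes (%) for which each library had the highest (left) or lowest (right) of the 5 values, for the 63 guidance genes (purple) and all 15815 genes tested (grey). LF/LCL replicate 1 and SF/SCL replicate 3 were highest in 39.7% and 38.1% of guidance genes, and LF/LCL replicate 2 was lowest in 38.1%.

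The summed fibroblast and endothelial markers followed the same order of libraries within each group, with LF/LCL replicate 1 above replicate 2 and, in SF/SCL, replicate 3 the highest and replicate 2 the lowest. For fibroblast markers the sums were 61162 against 25953, and 36776 against 16414. DCN, LUM, PDGFRA, COL1A1 and COL3A1 kept the order of the fibroblast sum. DPT was lower in LF/LCL replicate 1 than in replicate 2 (349 and 490). THY1 was highest in SF/SCL replicate 1 (2452, 699 and 2126). KDR was the largest part of the endothelial sum in SF/SCL, at 3546, 2699 and 3560. EMCN was lowest in SF/SCL replicate 1 (661, 1345 and 1477), and VWF was nearly level between replicates 1 and 2 (1149 and 1146). CDH5, CLDN5, TEK and TIE1 kept the order of the sum. NRP1 and ROBO4 showed that order too, whereas NRP2 did not in SF/SCL and NTN4 was level between replicates 1 and 2. Other guidance genes described above as endothelial or vascular were mixed. PLXND1 and EFNB2 showed the order, but UNC5B did not in either group, and SEMA3G, EFNA1 and EPHB4 did not in SF/SCL. Whether these cells account for the spread of the guidance genes was not tested.

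**Figure D5:**
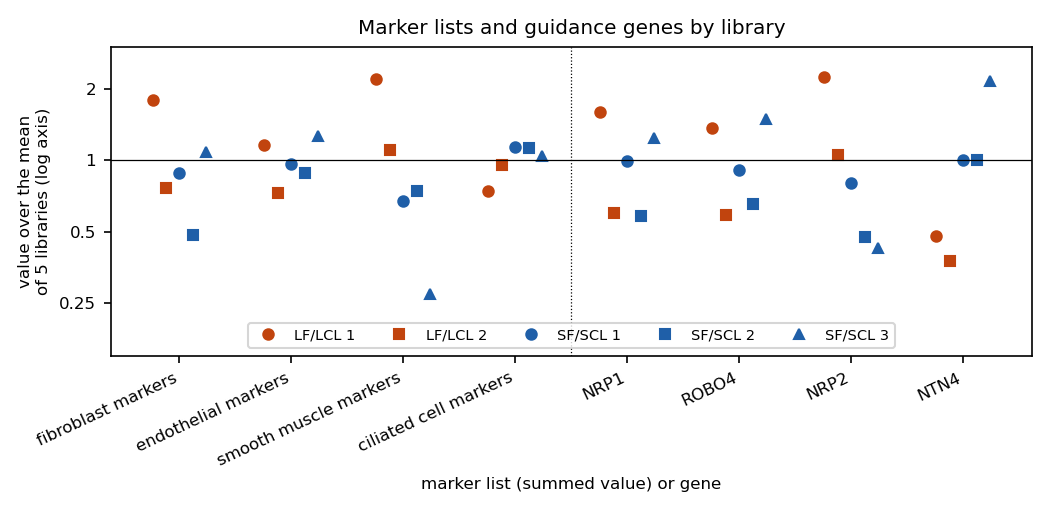
Summed normalized reads of 4 marker lists (left of the dotted line) and normalized reads of 4 guidance genes (right), each divided by its mean over the 5 libraries and drawn on a log axis. Orange points are LF/LCL, blue points SF/SCL, and the shape gives the replicate. NRP1 and ROBO4 are ordered within each group like the fibroblast and endothelial sums, and NRP2 and NTN4 separate the groups. Other vascular guidance genes, such as UNC5B and SEMA3G, are not drawn and are not ordered in that way.

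Partners and intracellular effectors of the guidance receptors came from a separate list, of which 73 genes were in the table and 68 were tested. At an unadjusted limma p under 0.05, 10 had their higher value in LF/LCL (5.64% of all genes) and 4 had it in SF/SCL (5.86% of all genes), and none passed the adjusted threshold in limma or edgeR. The median log2 fold change was 0.14. Split by role at the same unadjusted p, the 17 partners gave 3 genes with LF/LCL on top and 0 the other way. The 51 effectors gave 7 and 4 in these directions, beside 5.64% and 5.86% of all genes. By the sign of the log2 fold change alone, 12 partners were above 0 and 5 below. Of the effectors, 31 were above 0 and 20 below. Without LF/LCL replicate 1 the count of 14 became 7, while the share of all genes went from 11.5% to 7.84%.

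DESeq2 called 3 of the 68 genes at an adjusted p under 0.05, against 2.89% of all genes. Of the 3, 2 were higher in LF/LCL (1.38% of all genes) and 1 in SF/SCL (1.5%). Whether these calls held in DESeq2 without a library was not examined. TIAM1, a Rac activator that acts downstream of ephrin-B and Eph signals, had 577 and 484 normalized reads in LF/LCL against 858, 842 and 825 in SF/SCL. The SF/SCL libraries were tightly grouped above LF/LCL (log2 fold change -0.67 ± 0.12 (SE), limma adjusted p = 0.212, DESeq2 adjusted p = 0.00321). PAK1, a kinase activated by Rac and Cdc42, had 1847 and 1794 normalized reads in LF/LCL compared with 1219, 1351 and 1339 in SF/SCL. LF/LCL was higher, and both groups were tight (log2 fold change 0.48 ± 0.10 (SE), limma adjusted p = 0.246, DESeq2 adjusted p = 0.0110). VAV3, a guanine nucleotide exchange factor recruited by Eph receptors, had 824 and 314 normalized reads in LF/LCL against 129, 107 and 206 in SF/SCL. LF/LCL was higher without overlap, and LF/LCL replicate 1 was far above replicate 2 (log2 fold change 1.84 ± 0.47 (SE), limma adjusted p = 0.306, DESeq2 adjusted p = 0.00485). Without LF/LCL replicate 1 its limma log2 fold change was 1.14.

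The 5 other genes of this list with the lowest p values were not called by either adjusted test. CHN1, a Rac inhibitor that EPHA4 uses, had 785 and 835 normalized reads in LF/LCL compared with 1103, 1048 and 1275 in SF/SCL. ARHGAP39, an effector of Robo receptors, had 1071 and 1091 normalized reads in LF/LCL against 1318, 1499.9 and 1489 in SF/SCL. Both were higher in SF/SCL without overlap. PLXDC2, a plexin-domain protein, had 1550.4 and 1464 normalized reads in LF/LCL compared with 1183, 1179 and 1133 in SF/SCL. RGMB, a ligand of the netrin receptor relative neogenin, had 284 and 252 normalized reads in LF/LCL against 181, 159 and 117 in SF/SCL, and GPC1, a heparan sulfate proteoglycan that binds slits, had 1154 and 866 normalized reads in LF/LCL compared with 611, 612 and 769 in SF/SCL. These 3 were higher in LF/LCL, again with no overlap between the groups.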

How the data were processed

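Whole-wall ampulla RNA from 5 cows (2 LF/LCL, 3 SF/SCL) was polyA-selected and sequenced as read pairs. Per the labels and the study's methods, the authors aligned reads with TopHat2 2.0.8 and Bowtie2 2.1.0 to the masked UMD assembly of the cattle genome and counted uniquely and unambiguously mapped reads with HTSeq 0.5.4p2. Whether strand was used was not stated. The deposited unit is a normalized signal, the read count divided by a DESeq 1.12.1 size factor. Dividing by the value of 1 read gave whole reads for 100% of values in each library (tolerance 6e-04). No column was left out, and no coordinates or sequences are given. Of the 5 libraries, no pair agreed within sampling noise (chi-square per degree of freedom 30.9 to 74.3).

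Genes with a mean above 5 (15815) entered limma 3.58.1 (lmFit, eBayes with trend and robust on) on log2(value + 1) in R 4.3.3, two-sided, with Benjamini-Hochberg adjustment over all of them. Alternatives were DESeq2 1.42.0 and edgeR 4.0.16 on recovered reads, voom, other pseudocounts, filters and scalings, and leaving out each library. The tests were tried on simulated data. The text names the 3 members of each role with the highest mean, or all members of a role with under 5, members with an unadjusted limma p under 0.05 or a DESeq2 call, the 5 with the widest SF/SCL spread, and up to 8 partners or effectors by p. The members and lists were chosen with earlier results of these data known.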

Additional observations from a re-analysis of the deposited data

How the results depend on the processing

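Small samples and few reads set the limits: fits without an LF/LCL library compare 1 cow, whose spread was assumed to equal that of SF/SCL, with 3. Of the 55 named genes under 16 other settings, 48 fold changes took the other sign, in 24 genes, and 6 passed the adjusted threshold, all under DESeq2 (EFNB1, NRP2, NTN4, PAK1, TIAM1, VAV3). As limma called no gene, no call could be lost, and staying above the threshold says nothing of stability. The causes were not tested. No paired analysis was possible because the cows of the groups differ and carry no shared number.

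The number of guidance genes with an adjusted p under 0.05 was 3 under DESeq2 and 0 under every other test run, leaving out a library included. Leaving out a library gave 6 to 13 genes with an unadjusted p under 0.05 (7.84% to 10.5% of all genes), 21 to 41 genes without overlap, a median log2 fold change of -0.32 to 0.16, and 7 to 16 partners and effectors at that p. The 41 and 40 came without LF/LCL replicate 1 and 2, where 1 library is left and 56.9% and 57.1% of all genes do not overlap, against 41.1% to 43% without an SF/SCL library. Of the 41, 31 were higher in SF/SCL (28.1% of all genes), and of the 40, 26 were higher in LF/LCL (28.9%). DESeq2 calls without a library, added after seeing the data, numbered 1 to 3, beside 269 to 404 over all genes (457 with every library). They brought in PLXNC1 without LF/LCL replicate 1 (adjusted p = 1.54e-05), ROBO3 (0.0221) and SEMA5A (0.0219) without LF/LCL replicate 2 and SEMA6D without SF/SCL replicate 1 (0.0404).

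Outside those fits, the log2 fold change of EPHA4 was -0.073 under voom and -0.016 under scaling to library size, SEMA6A -0.0194 under the latter, SEMA5B -0.049 under both DESeq2 and edgeR, SEMA6B -0.062 and -0.060, and SEMA6C 0.080 and 0.079. Leaving out a library moved across 0 EFNA1 -0.62 to 0.21, EFNB2 -0.35 to 1.11, EFNB3 -0.048 to 1.62, EPHA4 -0.81 to 0.85, EPHB2 -0.44 to 0.16, EPHB3 -0.48 to 0.21, EPHB4 -0.044 to 0.45, NRP1 -0.57 to 0.83, NTN1 -0.98 to 0.46, NTN3 -0.64 to 0.16, PLXNA3 -0.41 to 0.25, ROBO1 -0.69 to 0.040, ROBO2 -0.82 to 0.63, ROBO4 -0.71 to 0.50, SEMA3A -1.58 to 0.16, SEMA3F -0.46 to 0.27, SEMA4A -0.19 to 0.068, SEMA5A -0.31 to 1.16, SEMA5B -0.59 to 0.77, SEMA6A -0.11 to 0.20, SEMA6B -0.41 to 0.43, SEMA6C -0.75 to 0.70, SLIT3 -0.55 to 0.20 and UNC5B -0.56 to 0.015.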
